A study of Mus musculus with 6 samples.

Results

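The 8 genes described here include the 4 transcription factors of the LEF/TCF family (Lef1, Tcf7, Tcf7l1 and Tcf7l2) and their partner beta-catenin (Ctnnb1). The other 3 are grouped as Wnt feedback genes (Axin1, Axin2 and Sp5), although Axin1 is made in most cells regardless of Wnt. The 8 genes were taken by name from the 22602 genes of the deposited table. All 8 were listed and had a mean of at least 1 RPKM over the 6 libraries. Genes at or above this level were tested (11595 genes). RPKM is the number of reads per kilobase of cDNA, scaled to the total reads of the library, so it can be set side by side between genes. The libraries were made from mouse embryonic stem (ES) cells grown on gelatin in serum with LIF. Clones A6, B8 and C4 gave 3 of them, and hold mouse Sim2 with a Flag tag, followed by the fluorescent marker Venus, at the ROSA26 locus under the hCMV*-1 promoter that the tetracycline-regulated activator tTA switches on once tetracycline is taken away. The other 3 (EB3-0, EB3-1 and EB3-2) came from EB3 (EBRTcH3), the parental line, which lacks Sim2 at this locus but shares the tTA system and Venus. All 6 cultures had been without tetracycline for 26 h. Each Sim2 library is 1 culture of 1 clone, whereas the EB3 libraries are 3 cultures of 1 line, so the differences between clones enter only on the Sim2 side.

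In the canonical Wnt pathway a secreted Wnt ligand binds a Frizzled receptor together with LRP5 or LRP6, and this halts the destruction complex, built on the scaffold AXIN, that otherwise marks beta-catenin for degradation. Beta-catenin then enters the nucleus and binds LEF/TCF factors, which sit on DNA at a short motif and repress or activate their targets according to the partner they hold. Axin2 and Sp5 are themselves switched on by the pathway in many tissues. In ES cells TCF7L1 (also called TCF3) is best known as a repressor of pluripotency genes, and beta-catenin relieves that repression. SIM2 is a bHLH-PAS transcription factor that pairs with ARNT. The comparison asks which of these transcripts differ between clones that express it and the parental line. SIM2 itself and any other difference that the clones share against their parental line cannot be told apart by this design.

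Sim2, the transgene product, checks the labels. It was listed at 196, 212 and 168 RPKM in A6, B8 and C4, and at 0.130, 0.0917 and 0.104 RPKM in EB3-0, EB3-1 and EB3-2, a 1770-fold difference of the means. The ES cell markers Pou5f1, Sox2, Nanog, Zfp42 and Utf1 summed to 3177 to 3194 RPKM in the clones and 3340 to 3920 RPKM in EB3, led by Pou5f1, and 0 of the 5 were called. Summed markers of other cell types were low: 2.31 to 3.09 against 1.90 to 2.78 RPKM for primitive streak and endoderm (led by Eomes), 2.78 to 6.58 against 4.15 to 5.97 RPKM for neural cells (led by Pax6), 2.83 to 3.71 against 1.91 to 2.39 RPKM for extraembryonic endoderm (led by Sox7), 6.31 to 24.7 against 4.58 to 5.94 RPKM for trophectoderm (led by Krt8, which alone reached 21.7 RPKM in B8), and 10.7 to 13.8 against 10.1 to 13.3 RPKM for fibroblasts, almost all of it Thy1, with Col1a1 at most at 0.165 RPKM. Depth ran from 25095861 reads in A6 to 28269340 in C4. EB3-1 and EB3-2 were close together (median absolute difference of 0.06 on the log2 scale, chi-square of 2.78 per gene), whereas EB3-0 stood 0.25 from each of them (chi-square of 77.8 to 78.4 per gene) and B8 stood 0.17 to 0.20 from the other clones, so the difference of each gene was also fitted without each library in turn.

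Of the 8 genes, Lef1 was lower in the Sim2 clones and passed the test, and the other 7 did not. A gene was called when limma on log2(RPKM + 0.5) gave an adjusted p under 0.05 by Benjamini-Hochberg over all 11595 tested genes. By this rule 0.699% of all tested genes were called, 0.354% lower and 0.345% higher in the clones, against 1 lower and 0 higher among the 8. The 3 clones lay wholly below the 3 EB3 cultures for Lef1 and Sp5, and wholly above them for Axin1. Of all tested genes 26.1% separated in this way, 13.4% lower and 12.7% higher. The median log2 difference was 0.09 over the 8 genes and -0.01 over all tested genes.

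**Figure D1:**
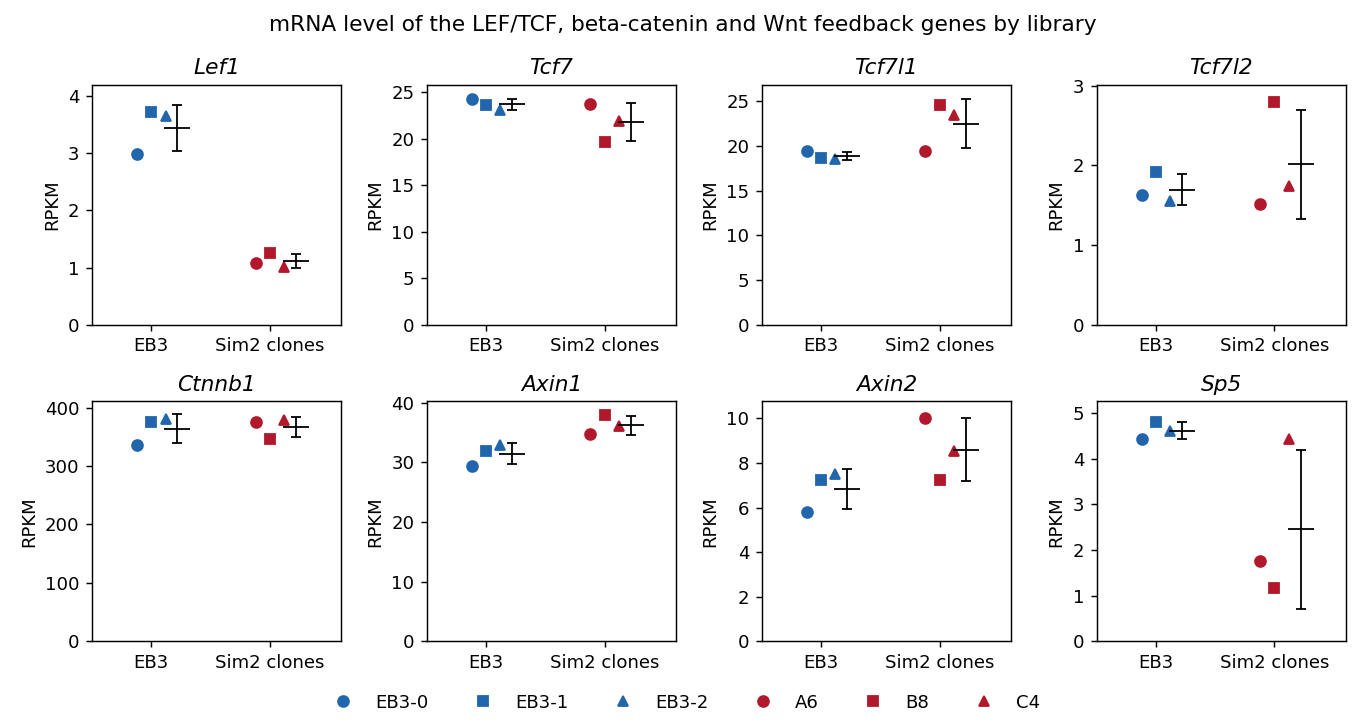
RPKM of each of the 8 genes (y axis, starting at 0, a scale of its own per gene) in the 3 EB3 cultures (blue) and the 3 Sim2 clones (red), with the mean and SD of each group in black (n = 3). Lef1 lay at 2.98 to 3.71 RPKM in EB3 and 1.01 to 1.25 RPKM in the clones, and for Sp5 clone C4 stood with EB3 while A6 and B8 lay below.

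Lef1 (chr3:130813389-130926249, plus strand, mm9, as for all positions given here) codes for a LEF/TCF factor that most often acts as an activator with beta-catenin. Clones A6, B8 and C4 had 1.09, 1.25 and 1.01 RPKM, from 67, 79 and 70 reads. In EB3-0, EB3-1 and EB3-2 it was listed at 2.98, 3.71 and 3.65 RPKM, from 200, 244 and 234 reads. Every clone was below every EB3 culture, and the 3 clones lay close together. The means were 1.11 ± 0.122 and 3.45 ± 0.405 RPKM (SD, n = 3 each), 3.10-fold apart. The log2 difference was -1.29 ± 0.16 (SE), with a 95% interval of -1.65 to -0.92 and an adjusted p of 0.0216 by limma, and a 2-sided exact permutation test reached its smallest possible p of 0.1 (n = 3 against 3). Taken clone by clone against the EB3 mean, the differences were -1.31 (A6), -1.17 (B8) and -1.38 (C4). Lef1 stood at rank 26 of 11595 from the most lowered gene, and 0.22% of tested genes had a larger fall.

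The call for Lef1 was lost in most fits with fewer libraries, in which its size hardly moved. Without EB3-0 the difference was still called (adjusted p = 0.0154 by limma). It was not called without A6 (adjusted p = 0.0691), B8 (0.0508), C4 (0.101), EB3-1 (0.133) or EB3-2 (0.119), or when EB3-1 and EB3-2 were averaged as 1 library (0.12). In these 7 fits the log2 difference stayed between -1.38 and -1.24. In bulk RNA, fewer cells that transcribe Lef1 and less Lef1 mRNA per cell cannot be told apart.

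**Figure D2:**
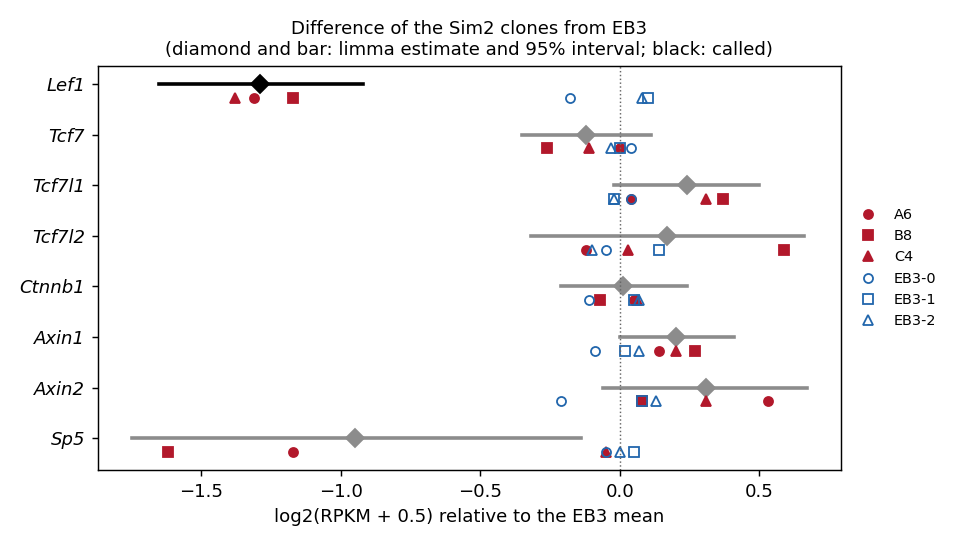
Difference from the EB3 mean on the log2(RPKM + 0.5) scale (x axis) for each of the 8 genes (rows). Diamonds and bars give the limma estimate and its 95% interval (black for the called gene, Lef1), filled symbols the 3 clones and open symbols the 3 EB3 cultures. The 3 clones cluster at -1.38 to -1.17 for Lef1 but spread from -1.62 to -0.05 for Sp5.

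Tcf7 (chr11:52066106-52095752, minus strand) codes for TCF1, the other factor of the family usually counted as an activator. Its level was 23.7, 19.7 and 21.9 RPKM in A6, B8 and C4, and at 24.3, 23.6 and 23.1 RPKM in the EB3 cultures. The groups overlapped, since A6 lay inside the EB3 range. The log2 difference was -0.12 ± 0.10, with a 95% interval of -0.35 to 0.11 and an adjusted p of 0.574 by limma, so the interval left out a fall of the size seen in Lef1.

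Tcf7l1 (chr6:72576374-72738950, minus strand), the repressor of the family in ES cells, was listed at 19.4, 24.5 and 23.5 RPKM in A6, B8 and C4. The EB3 cultures were listed at 19.4, 18.6 and 18.6 RPKM. B8 and C4 lay above all EB3 cultures, and A6 (19.38 RPKM) fell just under EB3-0 (19.386 RPKM). On the log2 scale the clones differed from EB3 by 0.24 ± 0.11 (95% interval -0.02 to 0.50, adjusted p = 0.312 by limma). The difference shrank to 0.13 once the trends with GC content and with cDNA length were taken out. The listed gene Gm15401 lies inside Tcf7l1 on the other strand (72579825 to 72587711, mean 2.44 RPKM), and the library kit does not mark strand. Reads from any shared exon could not be assigned with certainty, but whether the exons of the 2 genes overlap was not checked.

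Tcf7l2 (chr19:55816300-56008145, plus strand), which codes for TCF4, was among the least abundant of the 8. It was listed at 1.52, 2.79 and 1.74 RPKM in A6, B8 and C4, and at 1.62, 1.92 and 1.55 RPKM in EB3. B8 stood alone at the top, 0.59 above the EB3 mean on the log2 scale, with A6 and C4 at -0.12 and 0.03. The log2 difference was 0.17 ± 0.21 (95% interval -0.32 to 0.66, adjusted p = 0.727 by limma), and it turned to -0.05 without B8.

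Set side by side, the 4 factors made up nearly the same summed mRNA level in every library with a different makeup. Their summed level was 45.7, 48.3 and 48.1 RPKM in A6, B8 and C4, and 48.3, 47.9 and 46.8 RPKM in EB3. Lef1 was the only one of the 4 whose share of that sum was lower in every clone than in every EB3 culture: 2.38%, 2.59% and 2.09% in A6, B8 and C4, against 6.18%, 7.76% and 7.79% in EB3-0, EB3-1 and EB3-2. The mean difference in share was -4.89 percentage points, and -5.42 to -4.61 with any 1 library left out. Tcf7l1 took 42.4%, 50.9% and 48.7% of the sum in A6, B8 and C4 and 40.1%, 38.9% and 39.6% in EB3. Its share was thus higher in every clone, although in A6 its own level was not above that of EB3-0. Tcf7 took 51.9%, 40.8% and 45.6% in A6, B8 and C4 and 50.3%, 49.3% and 49.3% in EB3, which overlap. The ratio of Tcf7l1 to Tcf7 was 0.789 to 0.804 in the EB3 cultures. Clones A6, B8 and C4 had ratios of 0.818, 1.25 and 1.07, above EB3 each time, least of all in A6. These shares are a description, and no test was made of them.

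**Figure D3:**
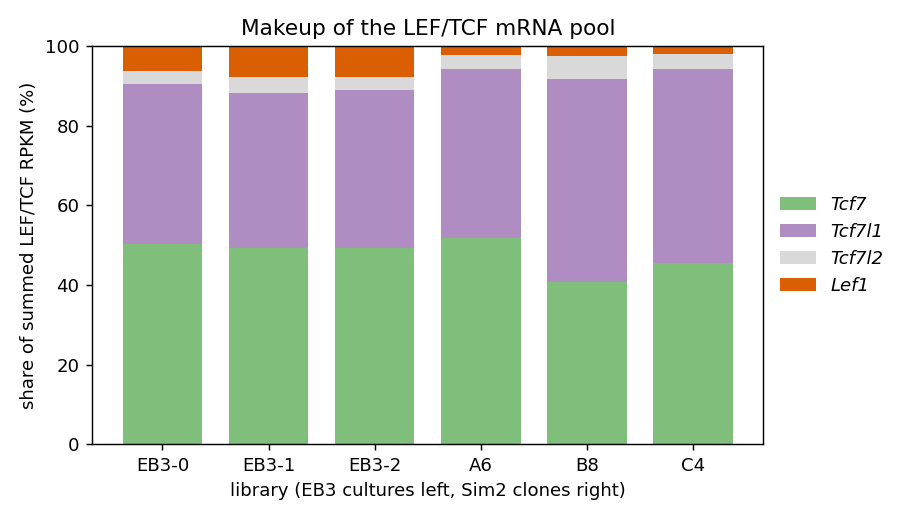
Share of each LEF/TCF gene in the summed RPKM of the 4 (y axis, percent) in each library (x axis). Lef1, the topmost band, took 6.18% to 7.79% in the EB3 cultures and 2.09% to 2.59% in the Sim2 clones, and Tcf7 and Tcf7l1 together took most of the rest in every library.

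Ctnnb1 (chr9:120842518-120869625, plus strand), which codes for beta-catenin, was by far the most abundant of the 8. Levels were 376, 347 and 378 RPKM in A6, B8 and C4, and at 335, 375 and 380 RPKM in EB3. The groups overlapped fully, with the lowest value in EB3-0. On the log2 scale the clones differed from EB3 by 0.01 ± 0.10, with a 95% interval of -0.21 to 0.24 and an adjusted p of 0.956 by limma. Its sign changed with the scaling (-0.00131 with each library centred on its median), so no direction is given for it. Beta-catenin is controlled mainly through protein stability, which mRNA levels do not measure. Only 1.03% of tested genes had a higher mean level.

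Axin1 (chr17:26275631-26332756, plus strand) codes for the scaffold of the destruction complex and is made in most cells regardless of Wnt. Its levels were 34.7, 37.9 and 36.0 RPKM in A6, B8 and C4, and at 29.5, 31.9 and 33.0 RPKM in EB3. The clones were all above EB3, by 1.15-fold in the means. The log2 difference was 0.20 ± 0.09 (95% interval -0.00 to 0.41), with an unadjusted p of 0.0529 and an adjusted p of 0.288 by limma, and it shrank to 0.05 once the trends with GC content and with cDNA length were taken out.

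Axin2 (chr11:108781663-108812095, plus strand), the AXIN gene that Wnt signalling itself induces, is a common readout of the pathway. It was listed at 10.03, 7.24 and 8.53 RPKM in A6, B8 and C4, and at 5.80, 7.22 and 7.50 RPKM in EB3. B8 lay inside the EB3 range, and EB3-0 lay 0.32 below EB3-1 and EB3-2 on the log2 scale. On the log2 scale the clones differed from EB3 by 0.31 ± 0.16 (95% interval -0.06 to 0.67, adjusted p = 0.362 by limma). It was 0.20 without EB3-0 or without A6. The estimate for Axin2 thus lay on the opposite side of 0 from that for Lef1, and its interval left out a fall of the size seen in Lef1.

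Sp5 (chr2:70312980-70315783, plus strand) codes for a zinc finger factor that Wnt signalling induces and that acts in turn on Wnt target genes. Clones A6, B8 and C4 had 1.77, 1.17 and 4.44 RPKM, from 93, 63 and 263 reads. The EB3 cultures were listed at 4.44, 4.797 and 4.60 RPKM, from 254, 269 and 252 reads. A6 and B8 were well below EB3, whereas C4 (4.4365 RPKM) was beneath the lowest EB3 culture (4.4381 RPKM) by less than the spread of the EB3 cultures. The log2 difference was -0.95 ± 0.35 (95% interval -1.75 to -0.14), with an unadjusted p of 0.0264 and an adjusted p of 0.214 by limma, so Sp5 was not called. Clone by clone the values were -1.17 (A6), -1.62 (B8) and -0.05 (C4). Without C4 the difference was -1.39 (adjusted p = 0.086 by limma), and without B8 it was -0.61 (adjusted p = 0.428).

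The spread between clones set Sp5 apart from Lef1. The SD of the log2 values over the 3 clones was 0.81 for Sp5, exceeded by 0.6% of tested genes, against 0.11 for Lef1 and a median of 0.14 over tested genes. The SD over the EB3 cultures was 0.05 for Sp5 and 0.15 for Lef1. Tcf7l2 was the next most uneven of the 8 among the clones, with an SD of 0.37, exceeded by 9.65% of tested genes. For each of the 8 genes B8 was at one end of the 3 clones. It was the lowest clone for Tcf7, Ctnnb1, Axin2 and Sp5, and the highest for Lef1, Tcf7l1, Tcf7l2 and Axin1. Over all tested genes B8 also stood apart, with a median absolute log2 difference of 0.20 from A6 and 0.17 from C4, against 0.11 between A6 and C4. The share of all tested genes with B8 at one end was not counted.

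In EB3 the levels ran, from high to low, Ctnnb1, Axin1, Tcf7, Tcf7l1, Axin2, Sp5, Lef1 and Tcf7l2, and the ranges of no neighbours in this order overlapped. In the clones the order was Ctnnb1, Axin1, Tcf7l1, Tcf7, Axin2, Sp5, Tcf7l2 and Lef1. There the ranges of Tcf7l1 (19.4 to 24.5 RPKM) and Tcf7 (19.7 to 23.7 RPKM) overlapped, as did those of Sp5 (1.17 to 4.44 RPKM) and Tcf7l2 (1.52 to 2.79 RPKM). Lef1, at 1.01 to 1.25 RPKM, lay below Tcf7l2 in the clones and above it in EB3.

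The 250 bases before the listed start are shown for Lef1, the called gene, and for the induced feedback genes Sp5 and Axin2, to set the gene with TCF motifs beside those without. The letters searched on both strands were CTTTGAA or CTTTGAT or CTTTGTA or CTTTGTT (the LEF/TCF motif) and ACGTG (the core that bHLH-PAS factors paired with ARNT bind), and no matches overlapped in the 8 windows. Each sequence is from mm9, reads 5′ to 3′ on the strand of the gene and ends at the base before the start, and capitals mark TCF motifs (as their reverse complement where they lie on the other strand).
Lef1, chr3:130813139-130813388: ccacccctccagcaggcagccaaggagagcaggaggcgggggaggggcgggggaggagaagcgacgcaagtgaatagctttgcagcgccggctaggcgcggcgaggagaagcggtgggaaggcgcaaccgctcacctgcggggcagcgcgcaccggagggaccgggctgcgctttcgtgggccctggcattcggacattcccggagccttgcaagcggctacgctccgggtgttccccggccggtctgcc
Axin2, chr11:108781413-108781662: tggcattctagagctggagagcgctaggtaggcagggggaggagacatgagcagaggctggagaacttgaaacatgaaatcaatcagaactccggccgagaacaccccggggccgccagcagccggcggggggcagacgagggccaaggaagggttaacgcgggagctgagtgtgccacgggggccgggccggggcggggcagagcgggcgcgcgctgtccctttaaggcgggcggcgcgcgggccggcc
Sp5, chr2:70312730-70312979: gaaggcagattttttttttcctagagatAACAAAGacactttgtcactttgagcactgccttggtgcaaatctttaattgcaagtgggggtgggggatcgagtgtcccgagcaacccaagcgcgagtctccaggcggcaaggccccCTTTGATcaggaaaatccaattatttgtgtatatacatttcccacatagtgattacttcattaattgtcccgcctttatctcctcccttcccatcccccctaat
Sp5 held 2 of these motifs, CTTTGTT on the other strand at 222 to 216 bases before the start and CTTTGAT on its own strand at 104 to 98 bases. The other 7 genes held 0 in this window. The window of Sp5 was 46.0% GC, the lowest of the 8, against 55.6% (Tcf7) to 74.8% (Ctnnb1) in the other 7. Windows were not matched for GC, and its part in the motif counts was not tested. Of the windows of all 22602 genes, 12.9% held at least 1 such motif and 1.26% at least 2. ACGTG was found in the window of 1 of the 8, Tcf7l2, and in 17.8% of all windows. In the 1000 bases before the start, Lef1 held 0 TCF motifs and 2 ACGTG cores, where 53.8% of all genes held at least 1 of the former and 46.1% at least 1 of the latter. A match of letters is a description and says nothing on binding. Tcf7l1 and Sp5 are named on the study's list of genes closest to SIM2 binding regions and the other 6 are not. None of the 8 is on its list of genes whose promoters contact such regions, which rests on published contact data from mouse ES cells. The share of all genes on each list was not counted, so these memberships are a description only. Lef1, the called gene, is on neither list.

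The genes around each of the 8 were also compared, as a check of whether whole stretches of chromosome differed there. Over the 20 nearest tested genes the median log2 difference was -0.03 around Lef1 and -0.07 around Sp5, with 0 called and 0 as far lowered as the gene itself in either place. Of all tested genes 0.699% were called, and 0.22% and 0.59% were more lowered than Lef1 and Sp5. These counts of 0 among 20 genes thus say little. Around the other 6 the medians ran from -0.13 (Tcf7) to 0.06 (Tcf7l2). In the clones A6 and B8, where Sp5 was low, the medians of its neighbours were -0.06 and -0.12, against -0.05 in C4.

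**Figure D4:**
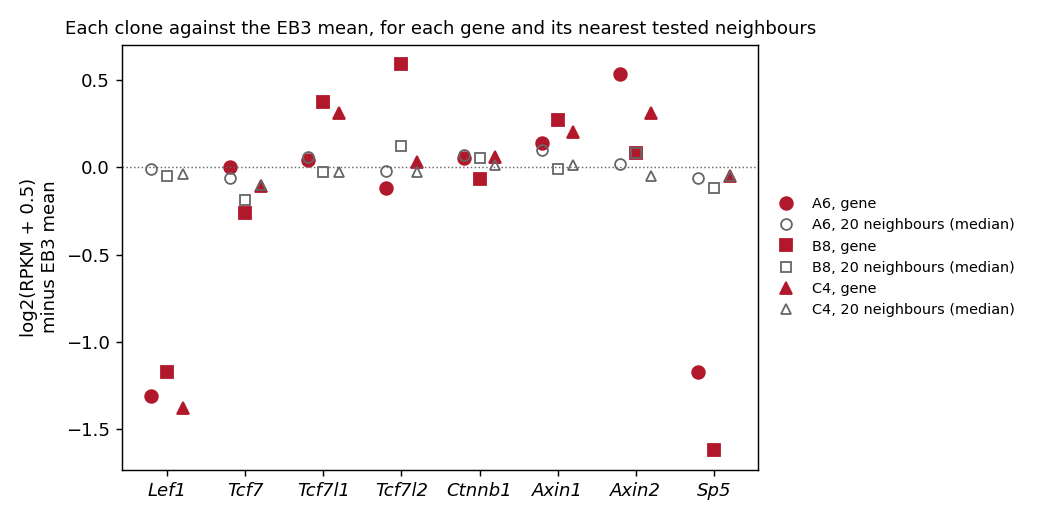
Log2(RPKM + 0.5) of each clone minus the EB3 mean (y axis) for each of the 8 genes (filled, red) and the median over its 20 nearest tested neighbours (open, grey). Neighbours of Lef1 and Sp5 had medians of -0.12 to -0.01 in every clone, while Lef1 lay at -1.38 to -1.17 and Sp5 at -1.62 to -0.05.

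The other genes of the pathway were taken from lists by role, 117 symbols in all, with 116 found in the table and 69 above the level for testing. Of these 69, 1 was called, Csnk1e, which was higher in the clones, beside 0.699% called of all tested genes. At that share, 0 or 1 called in lists of this size says little about the pathway. Of the 69, 14 (20.3%) had an unadjusted p under 0.05, 10 higher (14.5%) and 4 lower (5.8%). Over all tested genes 17.8% had one, 8.4% higher and 9.36% lower. Groups did not overlap for 12 genes higher and 4 lower, beside the 12.7% and 13.4% of all tested genes given above. The median log2 difference was 0.07, with 47 of 69 above 0, against -0.01 over all tested genes. Leaving out EB3-0 raised the number called to 8 (Cdx1, Csnk1a1, Csnk1e, Ctnna1, Fzd10, Jup, Lrp5 and Sfrp4), and leaving out any other library lowered it to 0.

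Of 21 Wnt ligands and secretion genes, 15 lay below a mean of 1 RPKM and 0 of the 6 tested were called. The highest was Porcn, which adds the lipid that Wnt proteins need, at a mean of 21.1 RPKM. Wnt6 was listed at 7.996, 2.82 and 3.39 RPKM in A6, B8 and C4 and at 3.17, 2.26 and 3.11 RPKM in EB3 (log2 difference 0.53 ± 0.33, adjusted p = 0.454 by limma), so A6 alone stood high, and without A6 the difference was 0.11. Wnt3a, the classic canonical ligand, differed by 0.48 ± 0.30 (adjusted p = 0.449) and was likewise highest in A6, at 2.93 RPKM, and without A6 the difference was 0.13. Wnt5a, mostly a ligand of noncanonical branches, differed by 0.30 ± 0.40 on the log2 scale, and by -0.13 without B8.

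Of 22 receptors and genes of the R-spondin branch, 13 were tested and 0 called, with 3 at an unadjusted p under 0.05, all higher in the clones (8.4% of all tested genes were higher at that level). The co-receptor gene Lrp5 was listed at 20.01, 21.0 and 16.4 RPKM in A6, B8 and C4 and at 12.4, 12.3 and 12.1 RPKM in EB3 (log2 difference 0.61 ± 0.12, adjusted p = 0.0694 by limma). The Frizzled gene Fzd10 was listed at 19.2, 19.0 and 17.4 RPKM in the clones and at 13.9, 14.02 and 13.9 RPKM in EB3 (0.40 ± 0.10, adjusted p = 0.0989). Both had all 3 clones above all 3 EB3 cultures, and of the 14 alternatives both were called only with EB3-0 left out. Ror2, a receptor for Wnt5a, differed by 0.52 ± 0.21 (adjusted p = 0.252; 0.33 without B8), with groups that overlap, and Fzd5, the highest of the list at 31.4 RPKM, by -0.11 ± 0.13.

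Of 19 extracellular and membrane inhibitors, 9 were tested and 0 called. Sfrp4, a secreted Wnt antagonist of the Frizzled-related family, was listed at 4.03, 3.09 and 4.31 RPKM in A6, B8 and C4 and at 6.54, 6.64 and 7.34 RPKM in EB3 (log2 difference -0.78 ± 0.15, adjusted p = 0.0714 by limma). Sfrp2 of the same family differed by -0.37 ± 0.14 (adjusted p = 0.213), and the membrane inhibitor Apcdd1 by 0.63 ± 0.20 (adjusted p = 0.172), or 0.41 without B8. For each of these 3 the groups did not overlap. Notum, the gene for an enzyme that inactivates Wnt proteins and the highest of the list at 30.4 RPKM, differed by -0.10 ± 0.10.

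Of 16 genes of the destruction complex and Dishevelled, 13 were tested and 1 was called. Csnk1e, the gene for casein kinase 1 epsilon, which acts on Dishevelled, was listed at 61.4, 57.7 and 54.9 RPKM in A6, B8 and C4 and at 41.1, 34.3 and 33.6 RPKM in EB3. It rose by 0.67 ± 0.10 on the log2 scale (adjusted p = 0.0383 by limma). It lies on chromosome 15, where 345 of 470 tested genes were higher in the clones with a median of 0.21, and 19 of its 20 nearest tested neighbours were higher with a median of 0.28. The part of this stretch in the rise of Csnk1e was not tested. Csnk1a1, the kinase gene that primes beta-catenin for degradation and the highest of the list at 154 RPKM, differed by -0.31 ± 0.10 (adjusted p = 0.154), and the Dishevelled gene Dvl3 by 0.49 ± 0.20 (adjusted p = 0.249; 0.28 without EB3-0), both with groups that did not overlap.

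**Figure D5:**
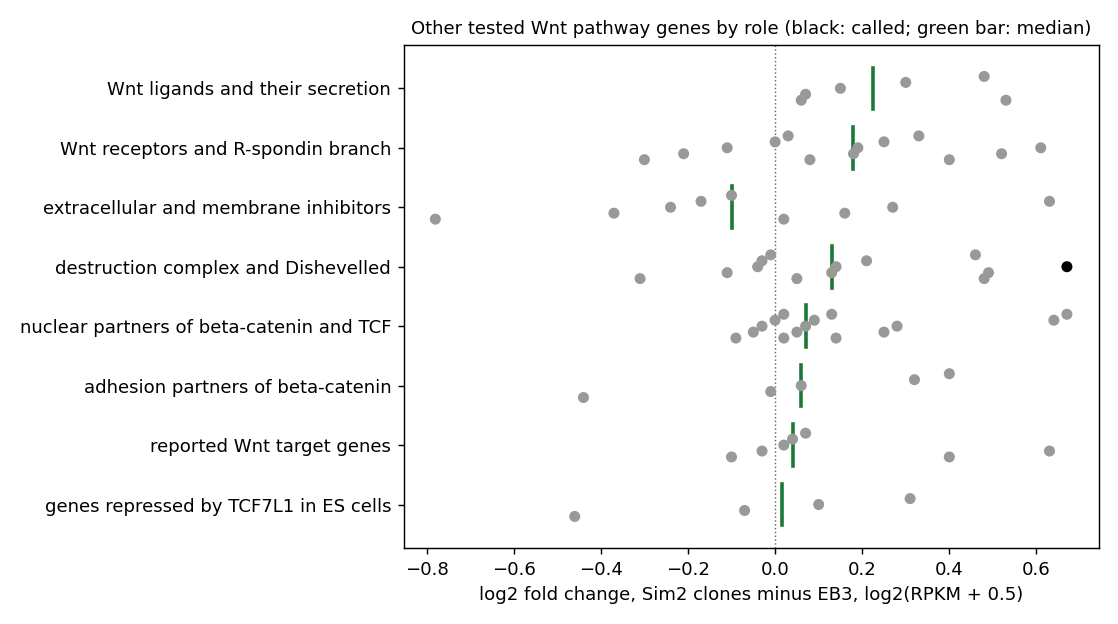
Log2 difference of the Sim2 clones from EB3 (x axis, log2(RPKM + 0.5) scale) for the other tested Wnt pathway genes, grouped by role (rows). Each point is 1 gene, black for the 1 called gene (Csnk1e), and green bars give list medians, which ran from -0.10 for the inhibitors to 0.23 for the ligands.

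Of 17 nuclear partners of beta-catenin and TCF, 15 were tested and 0 called. The coactivator gene Ep300 differed by 0.67 ± 0.26 (adjusted p = 0.229 by limma) and Bcl9l, which links beta-catenin to its coactivators, by 0.64 ± 0.25 (adjusted p = 0.241). For both the lowest value was that of EB3-0, and without it Ep300 differed by 0.33. Without B8 the difference of Bcl9l was 0.42. Cby1, an antagonist of beta-catenin, differed by 0.25 ± 0.15 on the log2 scale (0.14 without A6, 0.39 without EB3-0), and it lies with Ep300 on chromosome 15, where the 20 nearest neighbours had medians of 0.27 and 0.26. Aes, a short Groucho relative and the highest of the list at 139 RPKM, differed by -0.09 ± 0.20, with a sign that turned without B8 or EB3-0 (0.03 and 0.14). Of the 5 tested genes listed as partners of beta-catenin in cell adhesion 0 were called. Jup (plakoglobin) was listed at 65.6, 73.7 and 63.6 RPKM in the clones and at 48.7, 51.7 and 52.3 RPKM in EB3 (0.40 ± 0.09, adjusted p = 0.0847). Ctnna1 (alpha-catenin, the highest of these at 223 RPKM) differed by 0.32 ± 0.08 (adjusted p = 0.114), also with groups that did not overlap. Cdh2 (N-cadherin) differed by -0.44 ± 0.25, or by -0.69 without EB3-0.

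No tested gene on the lists of targets was called. These lists leave out the 8 genes described here, among them Lef1 and the induced genes Axin2 and Sp5. Of 18 reported Wnt targets, 11 lay below a mean of 1 RPKM, T (brachyury) among them at 0.389 RPKM, and 7 were tested, of which 1 had an unadjusted p under 0.05 (Apcdd1, given above as an inhibitor). Cdx1 differed by 0.40 ± 0.27 on the log2 scale (0.71 without EB3-0 and 0.19 without EB3-2), and Ccnd1 (cyclin D1, the highest at 127 RPKM) by 0.07 ± 0.12. Of 4 tested genes that TCF7L1 is known to repress in ES cells 0 were called. Klf2 was listed at 115, 125 and 131 RPKM in A6, B8 and C4 and at 205, 152 and 158 RPKM in EB3 (-0.46 ± 0.13, adjusted p = 0.127 by limma), and EB3-0 set its top value. Esrrb differed by 0.31 ± 0.16 (adjusted p = 0.346), with the groups apart and B8 highest (0.12 without B8), and Nanog (mean 367 RPKM) by 0.10 ± 0.10.

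The genes whose levels followed Lef1 most closely were sought among the 1401 tested genes whose log2 values spanned at least 1 over the 6 libraries. The 5 with the highest Pearson's r over the 6 libraries were Otx2 (r = 0.994), Zfp951 (0.991), Dazl (0.983), Smyd1 (0.982) and Egr1 (0.981), and 17 genes had an r over 0.95. All 5 were lower in every clone than in every EB3 culture. Their log2 differences were -1.75 for Otx2, a homeobox factor of the anterior epiblast and brain, -2.53 for Zfp951, -1.07 for Dazl, a germ cell RNA-binding protein, and -1.28 for Egr1, an immediate early factor, each called by limma, and -0.97 for Smyd1, a muscle methyltransferase (adjusted p = 0.0602 by limma, not called). The 6 libraries fall into their groups on Lef1, so any gene cleanly lower in the clones scores high on this measure. Genes cleanly higher in the clones score negative, so the shared direction of the 5 follows from the ranking.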

How the data were processed

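Messenger RNA was sequenced from 6 mouse ES cell cultures, 3 Sim2 clones and 3 EB3 cultures, grouped by their sample labels. The authors mapped paired reads to mm9 with BWA, counted exon coverage of RefSeq genes with a custom pipeline and deposited RPKM per library. The version of BWA, and how strand and repeated matches were treated, are not given in the sources used here. RPKM multiplied by cDNA length came out as whole steps in each library for 100% of values (tolerance 0.01), which recovered the reads, from 25095861 to 28269340 per library. At that depth a cDNA of 2 kb gains 0.0177 to 0.0199 RPKM per read. More genes had 2 reads than 1 (742 against 199 in A6), so mates were counted apart and fragments are fewer.

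Genes whose RPKM averaged 1 or more (11595 of 22602, 51.3%) were tested with limma 3.58.1 (R 4.3.3; lmFit, eBayes with an intensity trend) on log2(RPKM + 0.5), with no covariate, and called at a Benjamini-Hochberg adjusted p under 0.05. This scale understates changes of low genes. SE and intervals are from this fit. Exact 2-sided permutation tests were added, and their smallest p is 0.1. P-values measure only the spread between these libraries. The fit was tested on simulated data. EB3-1 and EB3-2 differed by a chi-square of 2.78 per gene, or 1.39 if every fragment gave 2 reads, above the 1 of counting noise, and were kept apart, and their average as 1 library is an alternative.

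Alternatives were pseudocounts of 0.1 and 1, no filter, centring on the library median, removal of trends with GC content and cDNA length (splines of 5 degrees of freedom, GC known for 96.1% of tested genes), no intensity trend, limma voom on the recovered reads, and each library left out. Named genes were the 8, Sim2, per role list every called gene or the smallest unadjusted p up to 3 and the highest mean, and the 5 most like Lef1. The genes and lists were chosen with earlier results of these data known. Tfcp2l1 was not analysed here. Each of the 8 positions overlaps the gene in an mm9 GENCODE annotation, 1 value per gene sums its isoforms, and 0 of the 8 transcripts had a near copy elsewhere in the genome (at least 100 bases at 90% identity).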

Additional observations from a re-analysis of the deposited data

How the results depend on the processing

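No paired analysis was possible because the groups share no replicate numbers. Of all tested genes 81 were called; this was 28 with no filter on low values, 187 with trends with GC content and cDNA length removed, 6 with EB3-1 and EB3-2 averaged as 1 library, 30 without the intensity trend, and 6 to 694 with 1 library left out (694 without EB3-0). Centring each library on its median called 66, of which 39.4% were higher against 49.4% before, and the removal of trends gave 60.4% higher. Of the 8 genes, 0 were called with no filter and with the averaged library, and 0 to 1 with 1 library left out. Lef1 was called in 7 of 14 alternatives. Its log2 difference was -1.29 with no filter (adjusted p = 0.0518 by limma), -1.24 with the averaged library (0.12), and -1.35 to -1.24 in the 5 fits with 1 library left out that did not call it (-1.38 without EB3-0). It was -1.62 on recovered reads and -1.07 with a pseudocount of 1, called in both. Of the other Wnt pathway genes, 0 were called with no filter, centring, the averaged library or no intensity trend, 3 with trends removed (Csnk1e, Klf2 and Sfrp4), and 0 to 8 with 1 library left out. The cause of these changes was not tested, other than that fewer libraries or more genes enter some fits.

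Ctnnb1 changed sign, to -0.00131 with centring and -0.0284 with trends removed, and ran from -0.0427 to 0.0549 with 1 library left out, as did Tcf7l2, from -0.0452 without B8 to 0.31. Tcf7, Tcf7l1, Axin1, Axin2 and Sp5 kept their direction and stayed uncalled in all 14 alternatives (-0.18 to -0.05, 0.13 to 0.34, 0.05 to 0.24, 0.16 to 0.42 and -1.39 to -0.61 on the log2 scale). Lef1, Sp5 and Tcf7l2 rested on 63 to 299 reads per library, fewer than the other 5. The part of read number in their precision was not tested.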
